A study of Mus musculus with 4 samples.

Results

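Colonic T cells that carried the transcript of Foxp3 but none of Il10, Gzmb or Klrg1 made up 84 of 332 Foxp3-positive cells (25.3%, exact binomial 95% interval 20.7 to 30.3%) and 8% of the 1050 cells kept. They were chosen by transcript counts alone. A cell was kept with at least 500 counts, at least 200 detected genes and under 20% mitochondrial counts. It was then taken when it held at least 1 count of Foxp3 and 0 counts of Il10, Gzmb and Klrg1. These cells are called effector-negative here. The 248 Foxp3-positive cells with a count of any of the 3 effector genes are called effector-positive, and the 476 cells with 0 counts of all 4 genes are called Foxp3-zero. Since the 4 genes chose the cells, their levels are not results.

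All cells were CD45+ TCRb+ CD4+ by flow cytometry and were taken from the lamina propria of the colon, the layer just beneath the gut epithelium. The mice were male, of the B6 strain and 6 weeks old. The labels give 4 samples in 1 group named Btheta_colon, and state no other treatment, genotype or comparison group. Single cells were captured in droplets by inDrops, which reads polyadenylated RNA through barcoded oligo dT primers. No barcode is tied to 1 of the 4 samples. The data were therefore read as 1 sample without replicates, no p-value is given, and all intervals are 95% intervals that cover counting error only.

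Regulatory T cells (Tregs) are CD4 T cells that restrain immune responses, and the transcription factor Foxp3 is needed for their identity. Many Tregs of the colon are activated tissue cells. They can make the anti-inflammatory cytokine interleukin-10 (Il10), carry the receptor Klrg1 that marks terminally differentiated cells, or hold the protease granzyme B (Gzmb). Resting Tregs that circulate through lymph nodes instead carry homing and quiescence genes such as Ccr7, S1pr1 and the transcription factor Klf2.

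The share of Foxp3-positive cells without effector transcripts was lower among cells with more counts. The effector-negative cells held a median of 1156 counts (507 to 7500), against 1381 in effector-positive cells (521 to 3943) and 1203 in Foxp3-zero cells. Among Foxp3-positive cells split into 4 equal depth groups, the effector-negative share was 34.9% in the shallowest, 26.5% and 24.1% in the middle groups and 15.7% in the deepest. The shallowest and the deepest interval overlapped only narrowly, at 24.8 to 46.2% and 8.61 to 25.3%. When every cell was thinned to 500 counts and the gate was read again, 85 of 183 cells that still held Foxp3 had no effector count (46.4%). In that reading, 61 of the 248 effector-positive cells (24.6%) showed no effector count. How many effector-negative cells hold effector transcripts that were not read was not tested.

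**Figure D1:**
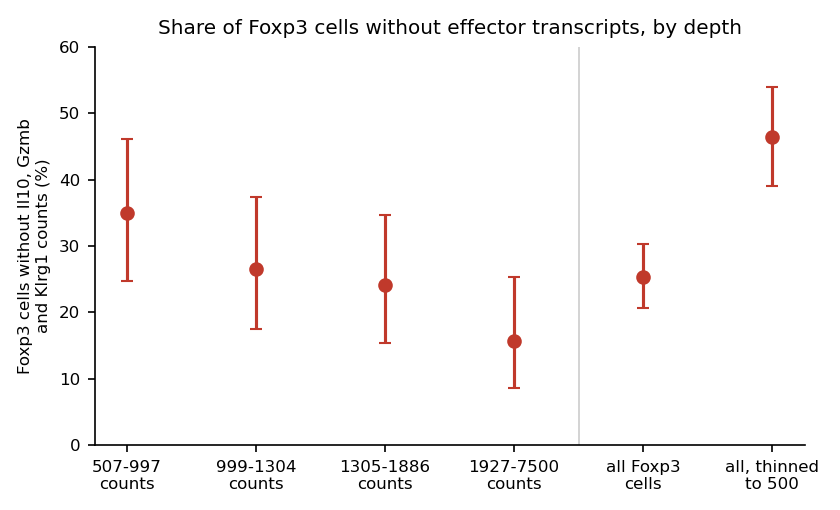
Share of Foxp3-positive cells without Il10, Gzmb and Klrg1 counts (y axis, percent) in 4 groups of 83 cells by counts per cell, in all 332 cells, and in the 183 cells that held Foxp3 after thinning to 500 counts (x axis). Points are shares and bars exact binomial 95% intervals; the share is 34.9% in the shallowest group and 15.7% in the deepest.

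The thresholds passed close to many cells. Of the effector-negative cells, 51 held a single Foxp3 count and 33 held 2 or more, and 51 effector-positive cells held a single effector count. In counts thinned to 500 per cell, Ctla4 stood at 1373 CPM (counts scaled to a total of 1e+06) in the 51 effector-negative cells with 1 Foxp3 count, against 2392 CPM in the 51 effector-positive cells with 1 effector count. Ctla4 encodes an inhibitory receptor that Tregs carry. Ikzf2, which encodes the transcription factor Helios, stood at 431 CPM and 1020 CPM in the same cells. These effector-positive cells were not matched on Foxp3 and held up to 6 Foxp3 counts. The 22 of them with 1 Foxp3 count had 1818 CPM of Ctla4 and 1000 CPM of Ikzf2.

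All comparisons below used counts thinned at random to 500 per cell, so that both sides had the same depth, with the values from all counts beside them. One thinned count was worth 23.8 CPM in the effector-negative cells, and a level of 3 thinned counts (71.4 CPM) was the floor. A gene was measured with at least 50 counts over both sides. It was called higher or lower when its ratio passed 1.5-fold in the same direction in both thinned and full counts. Against effector-positive cells, 113 of 1788 measured genes were called higher (6.32%) and 186 lower (10.4%), with a median log2 ratio over all genes of -0.02. Against Foxp3-zero cells, 305 of 2760 genes were called higher (11.1%) and 300 lower (10.9%). These shares are the background for the gene groups that follow.

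The effector-negative cells carried Treg genes well above Foxp3-zero cells. Of 8 Treg markers other than the gate genes (Ctla4, Ikzf2, Il2ra, Tnfrsf4, Tnfrsf18, Icos, Ikzf4 and Tigit), at least 3 were detected in 59.5% of effector-negative cells, in 83.1% of effector-positive cells and in 17.4% of Foxp3-zero cells. At 500 counts per cell these shares were 22.6% (14.2 to 33.0%), 39.1% (33.0 to 45.5%) and 6.72% (4.64 to 9.36%). The effector-negative cells lay between the other sides, their interval was apart from that of the Foxp3-zero cells, and it met that of the effector-positive cells only at its edge. In full counts, 4 of the 84 effector-negative cells showed none of the 8 markers.

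Free RNA can give counts in cells that do not express a gene. Cells with counts of at least 2 of 6 naive T cell genes, among them Tcf7, Lef1 and Ccr7, served as a guide, and Foxp3 was counted in 6 of 70 of them (8.57%). It was counted in 31.6% of all kept cells. The 64 of them without Foxp3 counts had a median of 1429 counts. At 500 counts per cell Ctla4 was detected in 36.9% of effector-negative cells, against 3.13% of these 64 cells. Ikzf2 was detected in 22.6% of effector-negative cells, against 1.56% of the 64. How many effector-negative cells hold Foxp3 counts from free RNA was not tested.

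Against effector-positive cells, most genes of the Treg core list were lower in the effector-negative cells. Of 17 measured genes of the Treg core list, 13 were lower and 4 higher, with a median log2 ratio of -0.36 (-0.44 in full counts). A total of 5 genes were called lower (Il2ra, Ikzf2, Tnfrsf18, Tnfrsf4 and Tnfrsf9) and 2 higher (Il2rb and Cd5), of which Cd5 turned direction in at least 1 further random draw. Il2ra, the high-affinity chain of the interleukin-2 receptor, stood at 143 CPM in effector-negative cells against 363 CPM in effector-positive cells (log2 ratio -1.35, interval -2.87 to -0.11). Ikzf2 stood at 714 CPM against 1129 CPM (log2 ratio -0.66, interval -1.28 to -0.08). The interval of each left out 0, and the effector-negative side was the lower one. Ikzf4, which encodes the Foxp3 partner Eos, was not called, at 119 CPM in effector-negative cells against 105 CPM in effector-positive cells (log2 ratio 0.18, interval -1.66 to 1.76). Its log2 ratio in full counts was 1.06 (0.17 to 1.91), with 9 of its 20 counts in 1 effector-negative cell.

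The inhibitory receptor gene Ctla4 and the costimulatory gene Icos were lower, without passing the call. Ctla4 stood at 1333 CPM in effector-negative cells against 2234 CPM in effector-positive cells (log2 ratio -0.74, interval -1.19 to -0.33). In full counts its log2 ratio was -0.58, just short of 1.5-fold, so it was not called. Icos reached 1429 CPM in effector-negative cells and 2266 CPM in effector-positive cells (log2 ratio -0.67, and -0.42 in full counts). Over 10 further random draws the Icos ratio ran from -0.60 to -0.25 on the log2 scale, a range that leaves out the first draw. Of 4 measured checkpoint receptors 3 were lower and 1 higher, none past the call. Of 5 measured TNF receptor genes, which Tregs use for survival and expansion signals, 4 were lower, 3 were called lower (Tnfrsf4, Tnfrsf9 and Tnfrsf18) and the list median was -0.60. The other, Tnfrsf1b, had 0.73 (-0.08 to 1.5) in thinned and -0.15 in full counts. Tnfrsf18, which encodes GITR, stood at 643 CPM against 1040 CPM (log2 ratio -0.69, interval -1.35 to -0.09).

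**Figure D2:**
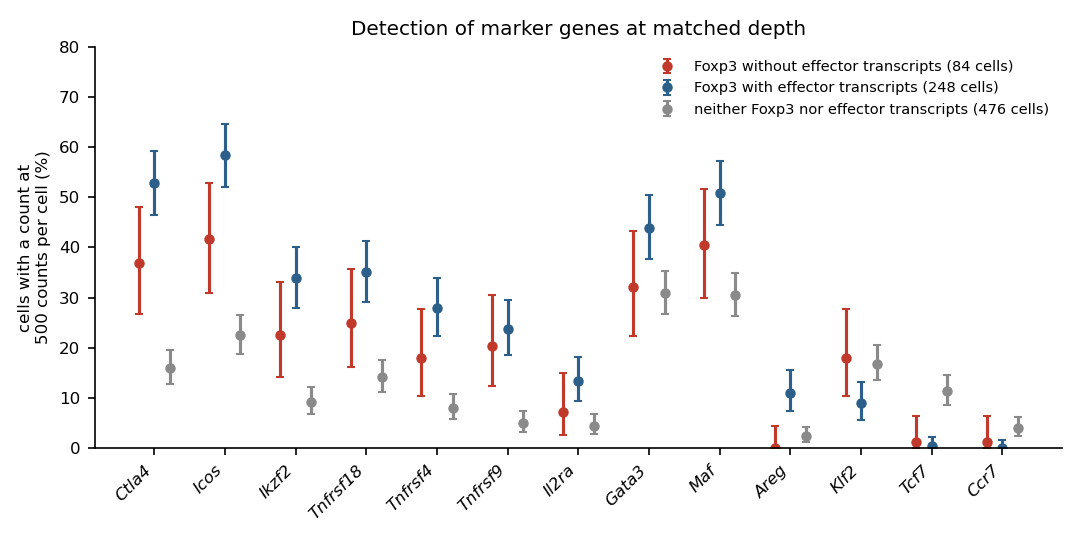
Share of cells with a count at 500 counts per cell (y axis, percent) for 13 genes (x axis) in 84 effector-negative, 248 effector-positive and 476 Foxp3-zero cells, with exact binomial 95% intervals as bars. Ctla4 was detected in 36.9% of effector-negative, 52.8% of effector-positive and 16.0% of Foxp3-zero cells; Areg was detected in 0 of the 84 effector-negative cells.

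The interleukin-2 receptor chains differed in direction. Il2rb, the signalling chain shared with the interleukin-15 receptor, was called higher, with 357 CPM in effector-negative cells against 194 CPM in effector-positive cells (log2 ratio 0.88, interval -0.15 to 1.87). Its interval included 0 in thinned counts and left it out in full counts, at 0.65 (0.03 to 1.25). Cish, a feedback inhibitor induced by STAT5 signalling, was called lower at 524 CPM against 815 CPM (log2 ratio -0.64). Over the 12 measured genes of the common gamma chain and STAT5 list, 6 were higher and 6 lower, with a median of -0.01.

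Most genes induced by T cell receptor and NF-kB signalling were lower in effector-negative cells. Of 19 measured genes of the T cell receptor and immediate early list, 16 were lower and 3 higher, with a median log2 ratio of -0.27, 5 called lower (Nr4a1, Egr1, Fosb, Nfkbia and Nfkbiz) and 1 higher (Jun). Nfkbia, which encodes the NF-kB inhibitor IkBa and is itself induced by NF-kB, stood at 2333 CPM in effector-negative cells against 3621 CPM in effector-positive cells (log2 ratio -0.63, interval -0.96 to -0.32). It was detected at 500 counts in 45.2% of effector-negative cells against 60.9% of effector-positive cells. Nfkbiz, an atypical IkB protein, stood at 190 CPM against 435 CPM (log2 ratio -1.19, interval -2.48 to -0.11). Nr4a1, an early reporter of T cell receptor signalling, stood at 524 CPM against 879 CPM (log2 ratio -0.75, interval -1.48 to -0.08). Egr1, another early response gene, stood at 47.6 CPM against 210 CPM (log2 ratio -2.14, interval -5.26 to -0.14), from only 2 thinned counts in the effector-negative cells. Jun was the exception at 429 CPM against 226 CPM (log2 ratio 0.92), but its interval included 0 and the lowest of 10 further draws gave -0.16.

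The promoter of Nfkbia is shown because its ratio rests on more counts than those of the other genes named from this list, and NF-kB is known to drive it. The window runs from 250 bases before to 50 after the RefSeq start, on the minus strand of GRCm38.p6, chr12:55492598-55492897. It is printed 5′ to 3′ along the gene, and capitals mark the single match to an NF-kB-type motif (GGGA, any base, TT, any base, CC), found on the opposite strand at position 222 of the window.

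Nfkbia: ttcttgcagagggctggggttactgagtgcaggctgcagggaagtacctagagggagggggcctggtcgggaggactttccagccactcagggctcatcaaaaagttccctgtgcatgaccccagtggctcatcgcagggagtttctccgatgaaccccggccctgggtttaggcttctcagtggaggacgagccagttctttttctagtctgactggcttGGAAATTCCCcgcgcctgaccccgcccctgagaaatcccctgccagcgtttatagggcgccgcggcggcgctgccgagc

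Both strands of all 32851 RefSeq promoter windows of this length were searched, and 394 of them (1.20%) held this motif. The match describes the letters of the window and does not show binding.

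Areg, which encodes amphiregulin, a growth factor through which tissue Tregs support epithelial repair, set the sides apart further. It had 0 thinned counts in the 84 effector-negative cells, against 36 thinned counts (290 CPM) in 27 of the 248 effector-positive cells. Set to the floor of 3 counts over the group, it was 4.06-fold lower. The interval of the thinned log2 ratio reached up to -1.65, a smaller difference. In full counts 3 of 84 effector-negative cells held Areg (3.57%) against 46 of 248 effector-positive cells (18.5%), with a log2 ratio of -2.28 (-3.94 to -1.0). All 3 of these effector-negative cells also held Gata3. The Areg promoter window, on the plus strand of GRCm38.p6 at chr5:91139349-91139648, is shown because the gene had no thinned count in the effector-negative cells. Capitals mark a full cAMP response element, TGACGTCA, at position 190, a motif that reads the same on both strands.

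Areg: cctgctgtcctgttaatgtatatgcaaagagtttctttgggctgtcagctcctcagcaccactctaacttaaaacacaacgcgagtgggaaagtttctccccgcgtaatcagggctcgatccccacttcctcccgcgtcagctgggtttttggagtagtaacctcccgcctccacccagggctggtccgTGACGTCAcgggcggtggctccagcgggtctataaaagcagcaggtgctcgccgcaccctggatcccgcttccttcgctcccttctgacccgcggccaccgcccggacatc

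The element was present in 588 of the 32851 windows (1.79%). As with Nfkbia, this describes the sequence and says nothing of its use in these cells.

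Most other tissue Treg genes differed less. Of 27 measured genes of the tissue or effector Treg list, 17 were lower and 10 higher, with a median of -0.12. A total of 3 were called lower (Areg, Penk and Lgals3) and 0 higher. Penk, which encodes the opioid peptide precursor proenkephalin, stood at 95.2 CPM in effector-negative cells against 258 CPM in effector-positive cells (log2 ratio -1.44, and -2.53 in full counts). In full counts 1 effector-positive cell alone held 29 of their 115 Penk counts. Gata3, a transcription factor of T helper 2 cells and of tissue Tregs, stood at 1381 CPM against 1887 CPM (log2 ratio -0.45, interval -0.89 to -0.03). Lgals1, which encodes galectin-1, had a log2 ratio of -0.57 (-1.03 to -0.13). Maf, a transcription factor that gut Tregs use to make interleukin-10, stood at 1595 CPM against 1734 CPM, and its interval of -0.54 to 0.28 included 0.

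Within the effector-negative cells, these factors were detected in sets of cells that overlapped in part. In full counts Gata3 was detected in 38 of the 84 cells, Ikzf2 in 29 and Maf in 55. A total of 19 cells held both Gata3 and Ikzf2, which is 50% of the Gata3 cells and 65.5% of the Ikzf2 cells, and 36 held neither. Gata3 and Maf were found together in 22 cells, 57.9% of the Gata3 cells and 40% of the Maf cells. Among all effector-negative cells, Ikzf2 was found in 34.5% and Maf in 65.5%, so Maf was not more frequent in the Gata3 cells. In effector-positive cells 75.5% of the Gata3 cells also held Maf, against 76.6% of all cells on that side, which had a higher depth.

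Klf2 and Gpr183, genes of quiescent and recirculating T cells, were called higher in effector-negative cells. Klf2 keeps T cells quiescent and drives S1pr1, the receptor for leaving tissue. It stood at 571 CPM in effector-negative cells against 258 CPM in effector-positive cells (log2 ratio 1.15, interval 0.32 to 1.96), and at 0.91 (0.43 to 1.37) in full counts. Klf2 was detected at 500 counts in 17.9% of effector-negative cells against 8.87% of effector-positive cells. One effector-negative cell alone held 14 of the 62 full counts, and capping each cell at 1 count left a log2 ratio of 1.03. Gpr183, a receptor for oxysterols that guides lymphocytes through lymphoid tissue, stood at 571 CPM against 250 CPM (log2 ratio 1.19, interval 0.36 to 2.01). Over 10 further draws the log2 ratio ran from 0.37 to 1.45 for Klf2 and from 0.51 to 1.56 for Gpr183. S1pr1 had 4 thinned counts in effector-negative cells and 5 in effector-positive cells (log2 ratio 1.24, interval -1.09 to 3.46), and the naive T cell gene Satb1 had 4 and 2 in the same order, so neither interval left out 0.

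Several naive T cell genes were near 0 on both Foxp3-positive sides. Tcf7, Ccr7 and Igfbp4, which are high in naive T cells, had 1, 2 and 0 thinned counts in all effector-negative cells and 1, 0 and 0 in all effector-positive cells, all at or under the floor. Lef1, a transcription factor of naive T cells with too few counts to be measured, had 2 thinned counts in effector-negative cells against 12 in effector-positive cells (log2 ratio -1.02, interval -4.22 to 1.14). In full counts it was found in 4.76% of effector-negative cells against 9.27% of effector-positive cells, with a log2 ratio of -1.62 (-3.57 to -0.16). At least 2 of the 6 naive genes were found in 1 of 84 effector-negative cells (1.19%), 5 of 248 effector-positive cells (2.02%) and 63 of 476 Foxp3-zero cells (13.2%). Of 5 measured genes of the naive and circulating list 4 were lower and 1 was higher, with Klf2 called higher and Foxp1 called lower. Of 14 measured homing and residency genes 10 were lower and 4 higher, with a median of -0.39. Gpr183 was called higher and Cxcr6 lower. Cxcr6, a chemokine receptor of tissue-resident T cells, had a log2 ratio of -0.98 with an interval of -2.52 to 0.28.

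**Figure D3:**
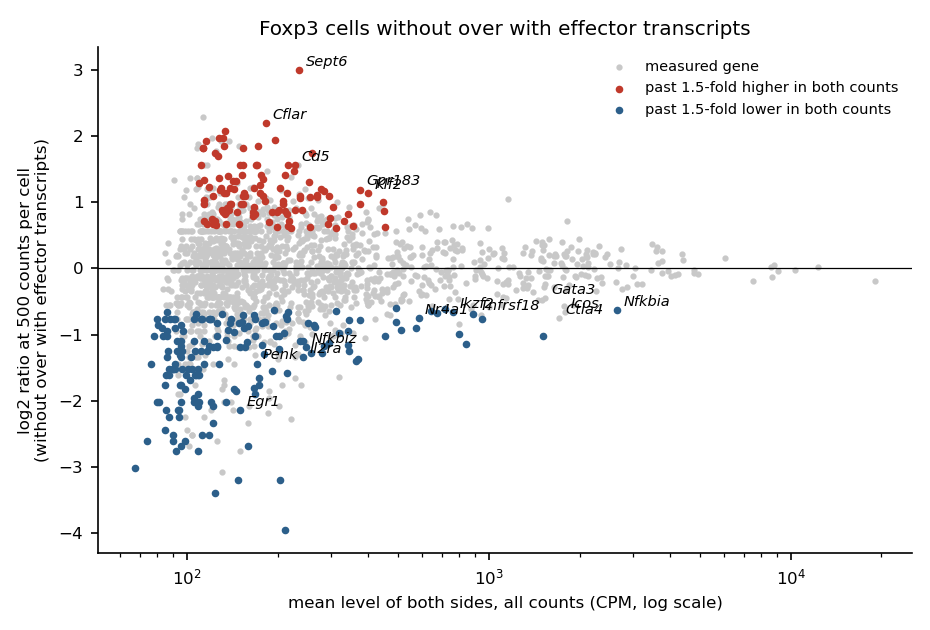
Log2 ratio of effector-negative over effector-positive cells at 500 counts per cell (y axis) against the mean level of both sides in full counts (x axis, CPM, log scale), 1 point per measured gene with counts on both sides. Red and blue points passed 1.5-fold in both thinned and full counts; Klf2 and Gpr183 stand near 1.15 and 1.19, and Nfkbia, the most abundant of the genes labelled, at -0.63.

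The genes with the highest ratios over effector-positive cells were of mixed function. The 12 highest with intervals that left out 0 in both readings were Sept6, Cflar, Ppm1g, Cbx6, Dut, Trim28, Dok2, Birc6, Cd5, Unc13d, Smap1 and Ifrd1. Sept6, a septin of the cytoskeleton, led with 452 CPM in effector-negative cells against 56.5 CPM in effector-positive cells (log2 ratio 3.0, interval 1.69 to 4.50), but with 1.57 in full counts. One effector-negative cell held 10 of its 42 full counts. Cflar, which encodes the caspase-8 inhibitor c-FLIP that protects cells from death receptors, stood at 333 CPM against 72.6 CPM (log2 ratio 2.20, and 1.45 in full counts). Dok2, an adaptor that dampens T cell receptor signalling, stood at 405 CPM against 121 CPM (log2 ratio 1.74, and 1.29 in full counts). Cd5, a receptor that tunes T cell receptor signalling, stood at 357 CPM against 121 CPM (log2 ratio 1.56, and 0.97 in full counts). Over 10 further draws the lowest log2 ratio was -0.18 for Cd5 and -0.12 for Ifrd1, and Trim28 had -0.44 among cells with at least 2 Foxp3 counts. The lowest included Sf3b2, Ncoa3, Mphosph8, Egr1, Kctd10, Osbpl3, Bola3, Wapl, Igtp, Eif3c and Fis1, each with at most 3 thinned counts in the effector-negative cells. Sf3b2, a splicing factor, had 1 thinned count against 46 (log2 ratio -3.96, interval -9.30 to -1.41) and -1.52 in full counts.

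None of the general T cell genes Cd4, Trac and Cd3e was called. Cd4 had a log2 ratio of 0.04 (-0.60 to 0.64) and Trac, the T cell receptor alpha constant gene, 0.41 (-0.01 to 0.81). Cd3e stood at 476 CPM in effector-negative cells against 161 CPM in effector-positive cells in thinned counts (log2 ratio 1.56), but its ratio in full counts was 0.55 with an interval that included 0. Ribosomal protein genes were slightly higher, 48 of 73, with a median of 0.14 and none called.

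The remaining lists gave no consistent direction against effector-positive cells. Among interferon response genes Ifi47 was called higher, and Gbp7 and Igtp were called lower. Of 12 class I antigen presentation genes 7 were higher and 5 lower with none called. Among 13 dissociation stress genes 10 were lower, with a median of -0.15 and 1 called (Jun, higher). Glycolysis genes were split 4 and 4 with none called, and cell cycle genes were 2 higher and 4 lower with 1 called (Stmn1, higher). At 1 Foxp3 count Stmn1 had 6 thinned counts in 51 effector-negative cells against 2 in 102 effector-positive cells. At 2 or more it had 0 in 33 cells against 8 in 146. One effector-negative cell held 92 of the 447 full counts of the cell cycle list on that side. The 8 TGF-beta axis genes had a median of 0.61 in thinned counts and of -0.53 in full counts, with none called. The T helper 1 and cytotoxic list had 3 measured genes and the T helper 2 list 2, with none called, and no gene of the type 17 list was measured.

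The levels did not follow the number of effector genes detected in even steps. Ctla4 stood at 1333 CPM in the 84 cells with 0 effector genes, 2206 CPM in 126 cells with 1 and 2262 CPM in 122 cells with 2 or 3. Icos stood at 1429, 2159 and 2377 CPM in the same order. For both genes the cells with 1 effector gene were already close to those with 2 or 3, and their intervals overlapped widely. Nfkbia stood at 2333, 3365 and 3885 CPM, and Areg at 0, 286 and 295 CPM. Klf2 stood at 571, 190 and 328 CPM, with overlapping intervals in the last 2 classes. Median depth was 1156, 1265 and 1488 counts in the 3 classes in full counts, while the levels are from thinned counts.

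**Figure D4:**
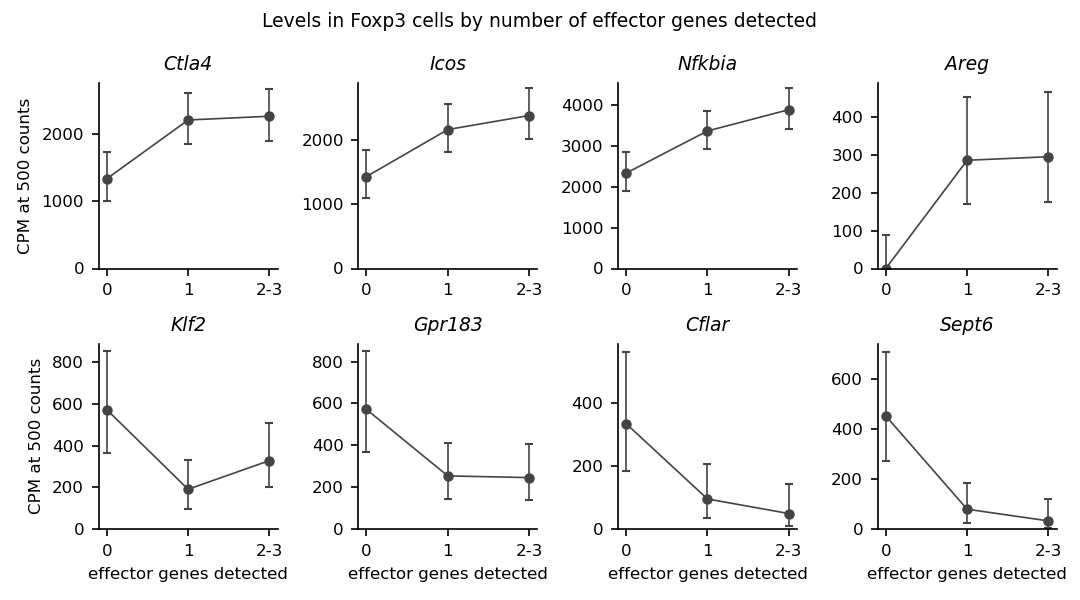
Level at 500 counts per cell (y axis, CPM) of 8 genes in Foxp3-positive cells by the number of Il10, Gzmb and Klrg1 detected (x axis: 0, 1, and 2 or 3 genes; 84, 126 and 122 cells). Points are summed counts with exact Poisson 95% intervals; the upper row is lowest at 0 effector genes and the lower row is highest there.

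A single Foxp3 count was held by 51 of 84 effector-negative cells and 102 of 248 effector-positive cells, so both sides were also matched on Foxp3 counts, a comparison added after the first results. The Treg core difference was found among cells with 1 Foxp3 count, where 10 of 11 measured genes were lower with a median of -0.92. Among cells with 2 or more Foxp3 counts, 6 of 12 were higher and 6 lower, with a median of 0.03 in thinned counts and -0.24 in full counts. Ikzf2 had a log2 ratio of -1.63 at 1 Foxp3 count and of 0.22 at 2 or more, where the full counts gave -0.27. Tnfrsf9, which encodes the costimulatory receptor 4-1BB, had -1.46 and 0.20. For the T cell receptor and immediate early list, at 1 Foxp3 count 6 of 15 measured genes were higher and 9 lower, with a median of -0.04, and at 2 or more 1 of 14 was higher and 13 were lower, with a median of -0.48. The difference between these strata was not tested.

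Several genes named here kept their direction at both Foxp3 levels. Nfkbia had log2 ratios of -0.71 and -0.47 at 1 and at 2 or more Foxp3 counts, and Nfkbiz of -1.17 and -1.02. Il2ra had -1.46 and -0.94, and Ctla4 had -0.39 and -0.99. Areg had 0 thinned counts in the effector-negative cells of both strata. Klf2 was higher at both levels, with 1.0 and 1.36, and so were Gpr183, with 1.14 and 1.45, and Dok2, with 1.87 and 1.56. The direction of these genes in full counts was the same in both strata. The thinned intervals of Nfkbiz and Il2ra included 0 in both strata. Those of Ctla4, Klf2 and Gpr183 included 0 at 1 Foxp3 count, and that of Dok2 at 2 or more. Nr4a1, Tnfrsf18, Gata3 and Icos were also lower in both strata. At 2 or more Foxp3 counts their full-count intervals included 0, with log2 ratios of -0.22, -0.23, -0.28 and -0.30. At 1 Foxp3 count these were -1.19, -0.97, -0.82 and -0.48.

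**Figure D5:**
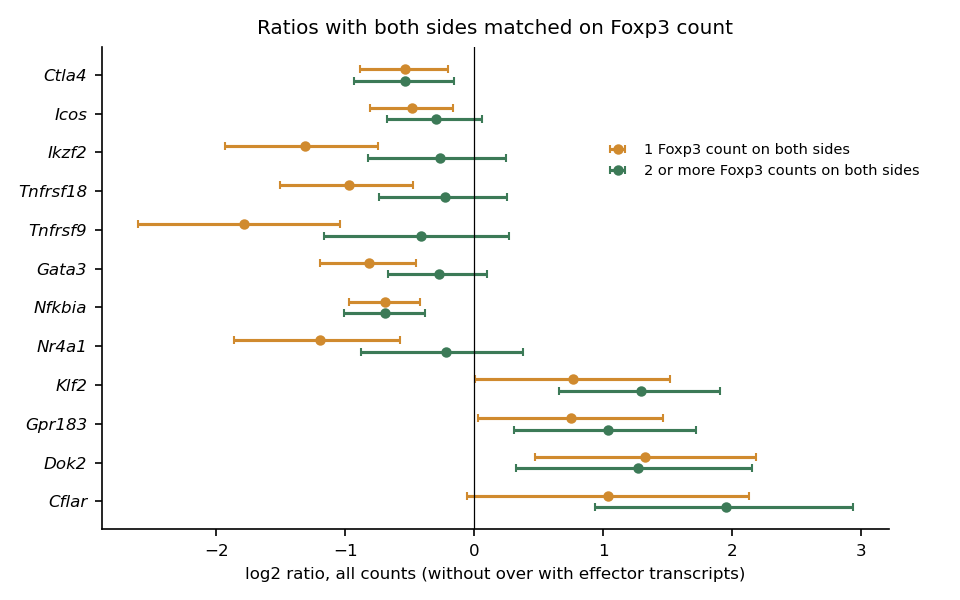
Log2 ratio in full counts of effector-negative over effector-positive cells (x axis) for 12 genes (y axis), with both sides limited to 1 Foxp3 count (51 and 102 cells) or to 2 or more (33 and 146 cells). Bars are exact conditional 95% intervals. Nfkbia lies below 0 and Klf2, Gpr183 and Dok2 above 0 in both strata. The intervals of Ikzf2, Tnfrsf9, Icos, Tnfrsf18, Gata3 and Nr4a1 include 0 only at 2 or more Foxp3 counts.

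Set against Foxp3-zero cells, the effector-negative cells had a broad Treg profile. The Foxp3-zero side can include Tregs whose Foxp3 was not read, so it is not a side free of Tregs. At 500 counts per cell Foxp3 was still read in 61.9% of effector-negative cells. How many Tregs the Foxp3-zero side holds was not tested. Of 14 measured Treg core genes 12 were higher and 10 were called higher, with a median log2 ratio of 1.21. Ctla4 stood at 1333 CPM in effector-negative cells against 555 CPM in Foxp3-zero cells (log2 ratio 1.27, interval 0.79 to 1.73). Ikzf2 stood at 714 CPM against 273 CPM (log2 ratio 1.39, interval 0.71 to 2.03). Ikzf4 stood at 119 CPM against 21.0 CPM (log2 ratio 2.50, interval 0.38 to 4.62), with 9 of its 20 full counts in 1 effector-negative cell. It was not among the 10 genes called higher, a call that also needed at least 50 counts over both sides. Icos had a log2 ratio of 1.01 (0.56 to 1.44). Vsir, which encodes the checkpoint molecule VISTA, had 1.55 in thinned and 0.94 in full counts, and 3 of 5 checkpoint receptors were called higher.

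All 5 measured TNF receptor genes were higher than in Foxp3-zero cells and 4 were called. Tnfrsf1b, the TNF receptor that supports Treg expansion, stood at 548 CPM in effector-negative cells against 143 CPM in Foxp3-zero cells (log2 ratio 1.94, interval 1.11 to 2.74). Tnfrsf9 had 1.47 (0.64 to 2.25) and Tnfrsf4, which encodes OX40, 1.15 (0.37 to 1.89). Of 13 common gamma chain and STAT5 genes 11 were higher and 6 called higher, with a median of 0.57. Il2rb had a log2 ratio of 1.41 (0.42 to 2.34), Socs2 of 1.62 (0.73 to 2.47) and the kinase gene Pim1 of 0.93 (0.48 to 1.37). Il2ra, with 143 CPM against 105 CPM, had an interval that included 0.

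Several tissue genes were also called higher than in Foxp3-zero cells. Of 22 measured tissue or effector Treg genes 16 were higher and 6 lower, with 7 called higher and none called lower. Maf stood at 1595 CPM in effector-negative cells against 845 CPM in Foxp3-zero cells (log2 ratio 0.92, interval 0.50 to 1.32). Prdm1, which encodes the effector regulator Blimp-1, stood at 143 CPM against 33.6 CPM (log2 ratio 2.09, interval 0.28 to 3.80). It was not among the 7 genes called higher, a call that also needed at least 50 counts over both sides. Fgl2, a suppressive secreted protein of Tregs, had 1.24 (0.50 to 1.94) and the chemokine receptor gene Ccr2 0.93 (0.32 to 1.51). Gata3 stood at 1381 CPM against 1240 CPM, with an interval of -0.28 to 0.57.

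The Foxp3-zero cells held more of the naive and T helper 1 genes. Of 16 measured naive and circulating genes 12 were lower in effector-negative cells, 9 were called lower and 1 higher, with a median of -1.07. Tcf7, a transcription factor of naive and memory T cells, stood at 23.8 CPM in effector-negative cells against 265 CPM in Foxp3-zero cells (log2 ratio -3.47, interval -8.80 to -0.94), from 1 thinned count and 63. Bcl2, which keeps resting T cells alive, had a log2 ratio of -1.54 in thinned and of -2.21 in full counts. The exception called higher was Cd27, a TNF receptor on memory T cells and Tregs, with 0.72 in thinned and 1.04 in full counts. Klf2, at 571 CPM against 550 CPM, had an interval of -0.64 to 0.69.

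Of 7 measured T helper 1 and cytotoxic genes 6 were lower than in Foxp3-zero cells, with 4 called lower (Ifng, Nkg7, Ccl5 and Cxcr3) and 1 higher (Srgn). Ccl5, a chemokine of cytotoxic and memory T cells, had a log2 ratio of -2.63 (-7.97 to -0.05) from 1 thinned count. Tbx21, the T helper 1 master regulator, had 0 counts in the 84 effector-negative cells, in full counts as well. The 476 Foxp3-zero cells held 23 thinned counts of it. These counts come from sides of unequal size, and Tbx21 was not among the 4 genes called lower. Cxcr6 stood at 143 CPM against 429 CPM (log2 ratio -1.58, interval -3.06 to -0.41). Of 76 ribosomal protein genes 62 were lower, with a median of -0.32 and none called.

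The other lists were close to even against Foxp3-zero cells. Of 19 T cell receptor and immediate early genes 12 were higher and 7 lower, with 3 called higher and 2 lower. Nfkbia was higher than in Foxp3-zero cells, at 2333 CPM against 1269 CPM (log2 ratio 0.88), but was not called since full counts gave 0.54. Homing and residency genes were 7 higher and 9 lower, interferon response genes 4 and 4, glycolysis genes 6 and 6, dissociation stress genes 7 and 7, class I genes 8 and 4, cell cycle genes 4 and 8 and TGF-beta axis genes 3 and 4. The T helper 2 list had 1 of 3 genes higher, and the type 17 list had 1 measured gene, Ccr6, which was not called.

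The highest ratios over Foxp3-zero cells, beside Cd83, were those of Fbxo3, Scamp2, Camk2n1, Pabpn1, Snrnp27, Anapc16, N4bp1, Cmtm7, Sept2, Cpd and Sdc4, at 1.96 to 2.38 in thinned counts. The lowest, beside Tcf7 and Ccl5, included Sf3b2, Lmo4, Tmed5, Usp1, Gng2, Il27ra, Stk4, Rexo2 and Hcst, each with at most 3 thinned counts in the effector-negative cells. Cd83, an activation marker, had a log2 ratio of 2.30, but 12 of its 20 full counts came from 1 cell. Sf3b2 stood among the lowest genes in both comparisons, which share the effector-negative cells.

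Markers of other cell types were few in most effector-negative cells. B and plasma cell genes had 7 counts over 84 cells with 8 of 9 genes at 0, among them Cd79a, Ms4a1 and Jchain. Of the 16 myeloid genes 9 were at 0, among them Csf1r, C1qa and Itgax, and the list summed to 595 CPM in effector-negative, 556 CPM in effector-positive and 676 CPM in Foxp3-zero cells at 500 counts. Epithelial genes summed to 71.4, 16.1 and 807 CPM and stromal or endothelial genes to 167, 64.5 and 731 CPM in the same order. In full counts the epithelial genes summed to 286, 17.7 and 4654 CPM. On the effector-negative side, 1 cell held 28 of the 34 full epithelial counts and 1 cell held 30 of the 70 myeloid counts. The CD8, gamma delta, ILC or NK list summed to 95.2, 24.2 and 118 CPM, with Cd8a and Ncr1 at 0 in effector-negative cells. At least 3 epithelial or stromal counts were found in 3 effector-negative, 1 effector-positive and 21 Foxp3-zero cells, and the part of these cells in the ratios is given in the closing section. Cells were not left out by their myeloid counts. A doublet caller marked 9 of 1050 kept cells, with 0 effector-negative, 5 effector-positive and 2 Foxp3-zero cells among them.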

How the data were processed

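CD4 T cells were profiled by inDrops. The file deposited by the authors holds raw counts, with barcodes against gene symbols; the submitters' processing notes name TopHat2, SAMtools and mm10. Versions, the counter, the handling of molecular identifiers and the annotation were not given in the sources used here. Of 1985 barcodes and 25724 symbols, 1071 barcodes reached 500 counts, 1058 of these reached 200 genes and 1050 of these were under 20% mitochondrial counts, with a median of 1236 counts.

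The members and the 23 gene lists were chosen with earlier results of these data known. The table contains 326 of 333 listed symbols, and the others were not analysed here. Each cell was thinned once to 500 counts without replacement (numpy 2.4.6). Ratios are of summed counts with exact conditional 95% intervals (scipy 1.17.1), and shares have exact binomial intervals. A side with 0 counts was set to 3 counts over the group, and such a ratio depends on this floor. The comparison code was tested on simulated data. The text names the 12 highest and 12 lowest ratios with at least 20 thinned counts and intervals that left out 0 in thinned and full counts, up to 4 members per list by the ratio over its interval width, and fixed markers. Gate genes and ribosomal, mitochondrial, antigen receptor and predicted genes could not enter by this rule. Doublets were called with Scrublet (scanpy 1.11.5) and kept in the main result. Promoter windows are from RefSeq (GRCm38.p6). Levels are compared between cells and never between genes. Some genes are not reported here.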

Additional observations from a re-analysis of the deposited data

How the results depend on the processing

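Of 69 values of calls and shares under 17 alternatives, 53 were within 1.5 times or the counting interval of the reported one, and 16 moved. Requiring a 2-fold ratio left 21 genes higher and 60 lower than in effector-positive cells, and 94 higher and 109 lower than in Foxp3-zero cells. A minimum of 100 counts per gene left 25 and 64 genes in the first comparison and 115 and 99 in the second, while a minimum of 20 gave 397 and 476, and 752 and 523. Full counts without thinning called 184 genes higher than in effector-positive cells and 491 lower than in Foxp3-zero cells. These changes follow from the number of genes measured, the size asked for, or the single reading asked for. The effector-negative share was 18.4% of cells with at least 2 Foxp3 counts and 46.4% with the gate read at 500 counts.

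Among the 112 named ratios, a turn of direction was counted only for ratios called higher or lower in the main result. By this count 11 values turned, and the cause was not tested. Ratios that were not called, such as that of Tnfrsf1b over effector-positive cells, could turn without being counted. With at least 2 Foxp3 counts, the log2 ratio over effector-positive cells was 0.22 for Ikzf2, 0.20 for Tnfrsf9 and -0.44 for Trim28, and that over Foxp3-zero cells was -0.24 for Cmtm7. In the lowest of 10 further draws it was -0.18 for Cd5, -0.12 for Ifrd1 and -0.16 for Jun over effector-positive cells. In the highest it was 0.24 for Cxcr6 over effector-positive cells and 0.50 for Ifng over Foxp3-zero cells. Thinning to 1000 counts gave -1.22 for Cd83, and cells with at least 1000 counts gave -0.17 for Sept2, both over Foxp3-zero cells. Leaving out cells with at least 3 epithelial or stromal counts, called doublets or the deepest effector-negative cell turned none of the called ratios. The last of these, the means over cells and the matching on Foxp3 counts were added after seeing the data.

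No paired analysis was possible because no barcode is tied to a sample, and for the same reason leaving out each sample was not run. The 84 effector-negative cells give 42000 thinned counts, so a gene near 71.4 CPM rests on 3 counts, and the median 95% interval of a thinned ratio over effector-positive cells was 2.70 wide on the log2 scale.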
